A study of Mus musculus with 16 samples.

Results

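The renin-angiotensin genes were followed through single-cell RNA sequencing of the mouse testis at postnatal day 2. The 6 genes were *Ren1* (renin), *Agt* (angiotensinogen), *Ace* (angiotensin converting enzyme), *Agtr1a* and *Agtr2* (angiotensin receptors) and *Atp6ap2* (the (pro)renin receptor), of 30451 genes counted. They were picked by name as members of the pathway, after *Ren1* had been seen to lead Leydig cells and *Agtr2* to lead stromal cells in these counts, so the levels of these genes by cell type are a description and were not tested. Whole testes were dissociated and captured with a 3′ droplet kit, from wild-type mice and from mice labelled *Ddx5* conditional knockout. In the study, floxed *Ddx5*, which encodes an RNA helicase, was deleted by an Mvh-Cre transgene, so the deletion concerns germ cells and not the somatic cells that held most of the UMIs described here. The labels list 8 libraries of each genotype, but the barcodes carry only the suffix 3 or 4, so each suffix counts as 1 library, and there was no replicate and no test.

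Which suffix belongs to which genotype is not given in the files. The numbers of cells put suffix 3 with wild type and suffix 4 with the knockout label. The germ gate held 1.93% of the kept cells in suffix 3 and 0.242% in suffix 4, which is lower in the suffix taken as the knockout. In germ cells the targeted gene *Ddx5* went against that label, at 1156 CPM (UMIs per 1000000 UMIs) in suffix 3 and 1736 in suffix 4, a ratio of 1.50 (95% interval 1.39 to 1.62), while 0 UMIs of the CRE transgene were found in suffix 3 and 20 in suffix 4. Over 12347 genes in the germ gate the median ratio was 0.602. The germ gates of the suffixes differed in make-up. The 3 germ markers not used in the gate summed to 676 and 313 CPM there, and the 6 Sertoli markers to 705 and 34.5 CPM. The part of this in the *Ddx5* ratio was not tested, and the libraries are called by suffix. Sums were 84263163 UMIs in suffix 3 and 67558106 in suffix 4. Cells needed 2000 genes or more, and a mitochondrial share of no more than 10%, which left 6329 cells in suffix 3 and 4950 in suffix 4, at a median of 11170 and 11668.5 UMIs. The suffixes shared 12 barcode sequences.

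In the renin-angiotensin system, renin cuts angiotensinogen to angiotensin I, and angiotensin converting enzyme turns this into angiotensin II, which acts through the type 1 receptor (*Agtr1a*) and the type 2 receptor (*Agtr2*). Renin is secreted mainly by the kidney, but the gonads also make it, and the type 2 receptor is known for its presence in fetal mesenchyme. *Atp6ap2* binds renin and prorenin and is also an accessory subunit of the proton pump V-ATPase. In the testis, *Ace* has a somatic promoter and an internal promoter that drives a shorter isoform in male germ cells.

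By RefSeq on GRCm38.p6, *Ren1* lies at chr1:133350674-133360320, *Agt* at chr8:124556587-124569706, *Ace* at chr11:105967948-105989964, *Agtr1a* at chr13:30336356-30382867, *Agtr2* at chrX:21484624-21488833 and *Atp6ap2* at chrX:12587759-12617051. In GENCODE M21 no exon of these genes overlapped an exon of another gene on the same strand, and 1 gene (*Gm11651*) overlapped *Ace* on the opposite strand. *Ren1* has a near copy, *Ren2*, in some mouse strains, which was not analysed here, so reads of the pair could not be told apart. The 250 bases before the start of transcription are shown for *Ren1* and *Agtr2*, which lead Leydig cells and stroma and had the largest fold over the next gate by geometric mean of the suffixes, and for both promoters of *Ace*, since 3′ counts do not tell its isoforms apart. They are written 5′ to 3′ on the strand of the gene, and capitals mark TATAAA or TGAGGTCA on either strand. The starts are those of RefSeq. GENCODE M21 places the first base of *Ace* at 105967945, so the last bases of its somatic window lie in a GENCODE exon.

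*Ren1*, chr1:133350424-133350673, plus strand: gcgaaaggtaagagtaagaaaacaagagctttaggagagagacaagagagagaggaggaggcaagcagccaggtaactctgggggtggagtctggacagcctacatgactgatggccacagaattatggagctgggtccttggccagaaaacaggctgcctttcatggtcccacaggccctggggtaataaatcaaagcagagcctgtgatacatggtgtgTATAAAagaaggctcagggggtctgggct
*Agtr2*, chrX:21484374-21484623, plus strand: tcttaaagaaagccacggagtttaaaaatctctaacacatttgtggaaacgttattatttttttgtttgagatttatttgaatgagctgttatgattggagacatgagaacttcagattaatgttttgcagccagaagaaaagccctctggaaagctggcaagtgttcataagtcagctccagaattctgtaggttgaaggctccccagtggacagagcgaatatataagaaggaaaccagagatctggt
*Ace*, somatic start, chr11:105967698-105967947, plus strand: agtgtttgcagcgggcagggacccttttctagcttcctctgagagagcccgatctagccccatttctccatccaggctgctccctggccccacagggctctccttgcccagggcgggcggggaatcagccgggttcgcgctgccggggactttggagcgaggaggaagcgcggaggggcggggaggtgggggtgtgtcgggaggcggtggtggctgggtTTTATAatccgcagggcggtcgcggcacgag
*Ace*, internal start, chr11:105974939-105975188, plus strand: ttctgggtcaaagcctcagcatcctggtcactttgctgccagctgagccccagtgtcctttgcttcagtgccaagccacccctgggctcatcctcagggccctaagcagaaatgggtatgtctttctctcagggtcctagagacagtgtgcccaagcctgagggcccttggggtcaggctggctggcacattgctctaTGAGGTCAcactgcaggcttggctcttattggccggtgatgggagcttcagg

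*Ren1* held TATAAA from 29 to 24 bases before its start, *Agt* held it from 30 to 25 bases before, and the somatic start of *Ace* held it on the other strand from 31 to 26 bases before. The internal start of *Ace* held TGAGGTCA from 52 to 45 bases before. Of 32851 RefSeq windows of the same length, 12.4% held TATAAA and 1.94% held TGAGGTCA on either strand. TGACGTCA (in 1.55% of windows) and CAAGGTCA (in 1.33%) were also searched and were found in none of the 6 windows of the members. A match is a description of the letters only. No window was used for *Agtr1a*.

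Cells were gated on marker UMIs into Sertoli cells (*Amh*, 2256 cells in suffix 3 and 1635 in suffix 4), Leydig cells (*Cyp11a1*, *Cyp17a1* and *Hsd3b1*, 177 and 143), myoid cells (*Acta2* and *Myh11*, 764 and 524), stroma (*Pdgfra* without *Amh*, 3590 and 3005) and macrophages (*C1qa*, *C1qb* and *C1qc*, 31 and 23). Of the markers not used in the gates, 6 of 6 for Sertoli cells, 5 of 5 for Leydig cells, 3 of 4 for myoid cells, 5 of 6 for stroma and 6 of 6 for macrophages were highest in their own gate in both suffixes. The gates overlap: 89.4% of myoid cells and 22.8% of Leydig cells also passed the stroma gate, and 450 cells passed none. Where this touched a value, it is also given with cells of the other gates taken out of the stroma gate. A gate for endothelial cells did not hold them (the summed level of *Kdr*, *Emcn*, *Tie1* and *Tek* was 10.3 CPM in suffix 3 and 10.6 in suffix 4), so endothelium, where *Ace* is known to be made, is not described. Levels are CPM of the summed UMIs of a gate, and all intervals are 95% intervals that cover counting error only.

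Each member had a leading cell type that was the same in both suffixes. *Ren1*, *Agt* and *Agtr1a* were highest in Leydig cells, *Ace* in myoid cells, *Agtr2* in stroma and *Atp6ap2* in macrophages. The leading gate was at least 2-fold above every other gate in both suffixes for 5 of the 6 members, the exception being *Agtr1a*. Over the 17135 genes with at least 20 UMIs in each suffix, Sertoli cells led by 2-fold in 4.72%, Leydig cells in 4.08%, myoid cells in 0.905%, stroma in 1.75% and macrophages in 5.18%. Nothing is read from the members' count against these shares, because the choice of the members used these levels.

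**Figure D1:**
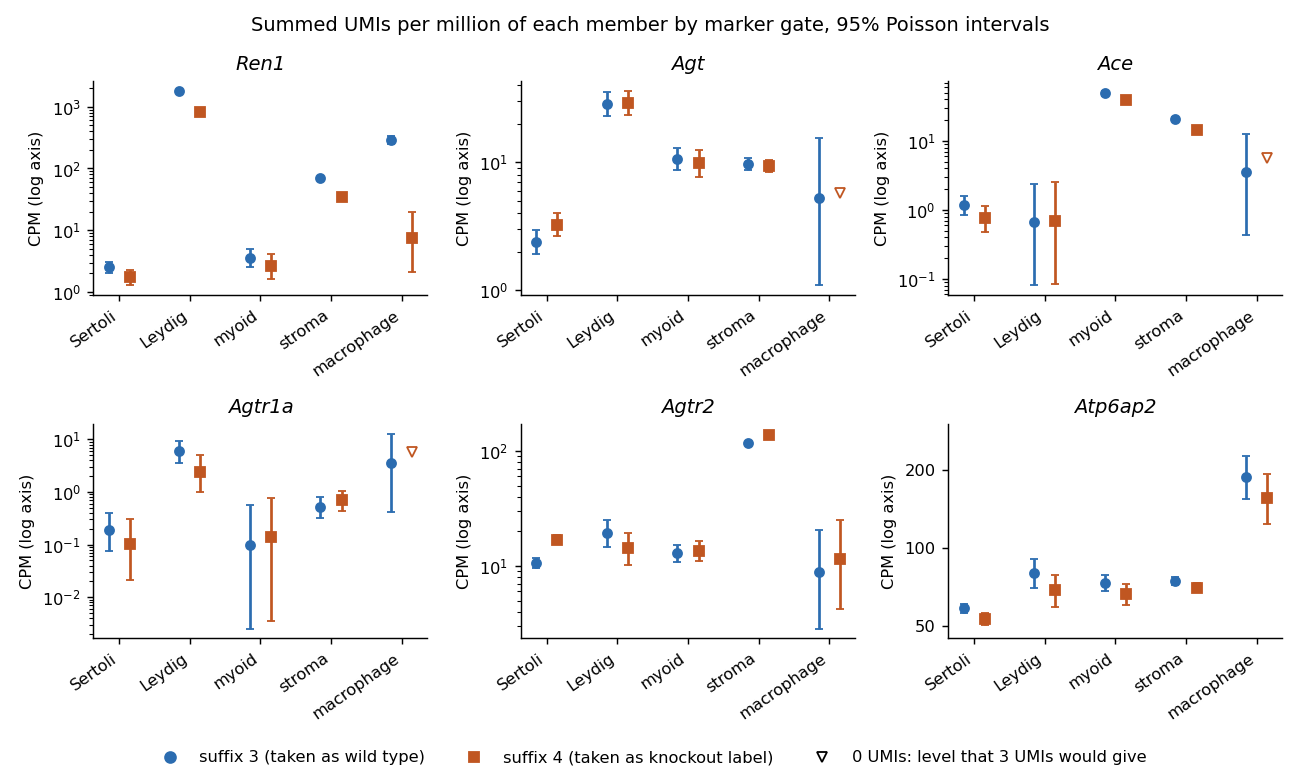
Level of each member (CPM, log axis) in the 5 marker gates, as circles for suffix 3 and squares for suffix 4 with 95% Poisson intervals; an open triangle is the level that 3 UMIs would give in a gate with 0 UMIs. *Ren1* stands at 1763 and 833 CPM in Leydig cells, *Agtr2* at 116 and 136 CPM in stroma, and *Atp6ap2* is spread over all gates.

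Renin was the member most tied to one cell type. Leydig cells, which make testosterone and, around birth, *Insl3*, held 96.5% of the 7983 *Ren1* UMIs but 3.95% of all UMIs. The *Ren1* level in the Leydig gate was 1763 CPM (1716 to 1811) in suffix 3 and 833 CPM (800.1 to 867) in suffix 4. In the stroma gate it was 69.5 and 34.4 CPM, in myoid cells 3.59 and 2.67 CPM, and in Sertoli cells 2.52 and 1.73 CPM. Nearly all of the stroma value came from cells that also passed another gate: without them, *Ren1* in stroma was 3.13 CPM in suffix 3 and 3.14 in suffix 4. The 288 CPM in macrophages of suffix 3 likewise rested on 164 UMIs in 3 cells, 116 of them in 1 cell, and no *Ren1* UMI was left in the 25 and 18 macrophages outside the Sertoli, Leydig and myoid gates, which allows up to 7.59 and 8.04 CPM. The Leydig level was thus 24.8-fold that of stroma with overlapping gates and 432-fold with the stroma gate cleared, at 605-fold (493 to 751) in suffix 3 and 308-fold (247 to 389) in suffix 4.

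Most Leydig cells had *Ren1*. A *Ren1* UMI was found in 76.8% of 177 Leydig cells in suffix 3 and in 67.8% of 143 in suffix 4, at a median depth of 14732 and 17355 UMIs, and after thinning to 5000 UMIs in 65.0% and 50%. In Sertoli cells outside other gates the shares were 1.18% and 1.56% (0.411% and 0.439% thinned), at a median of 13626 and 15671 UMIs, which is taken as the background of free RNA. Per 100 *Hsd3b1* UMIs, *Ren1* was found at 30.2 and 13.4 UMIs in Leydig cells and at 21.9 and 17.9 UMIs in those Sertoli cells. Per 100 *Insl3* UMIs it was found at 144 and 122 UMIs against 162 and 278, and per 100 *Cyp17a1* UMIs at 37.1 and 17.4 against 39.5 and 32.1. Per 100 *Hsd3b1* UMIs, cleared stroma was at 100 and 59.9 UMIs, and myoid cells outside the Sertoli, Leydig and macrophage gates at 55.3 and 44. Outside Leydig cells these ratios rest on few UMIs. Whether a single source of free RNA gave them was not tested.

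Within the Leydig gate, renin UMIs were very unevenly held. In suffix 3 the median cell had 4 *Ren1* UMIs, 41 of 177 cells had none and 1 cell had 683. In suffix 4 the median was 3, 46 of 143 cells had none and the highest cell had 492. In suffix 3, 9 cells held 50% of the *Ren1* UMIs, and in suffix 4, 6 cells did. A sum over these cells therefore rests on few cells, and its counting interval understates the uncertainty.

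*Ren1* was lower in suffix 4 than in suffix 3 in Leydig cells, at a ratio of 0.473 (0.450 to 0.496), and at 0.557 in Leydig cells that passed no other gate. The median ratio of all 11251 genes with at least 20 UMIs in the Leydig gate was 1.0, and 1.56% of them were at least 2-fold lower in suffix 4. Of the 5 members with 20 UMIs or more there, 2 were: *Ren1* and *Agtr1a*. With 1 library per suffix the genotype and the library cannot be told apart. The ratio was below 1 in each tercile of the summed steroidogenic genes *Cyp11a1*, *Cyp17a1* and *Hsd3b1*, at 0.487 in the low, 0.390 in the middle and 0.592 in the high tercile. It was 0.415 without the 5 highest cells of each suffix.

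*Insl3*, a hormone of Leydig cells that acts on testis descent, moved with *Ren1*. Its level in the Leydig gate was 1225 CPM in suffix 3 and 720 in suffix 4, a ratio of 0.588 (0.557 to 0.621). Steroidogenic genes did not share this: the ratio was 0.997 for *Cyp11a1*, 1.05 for *Cyp17a1*, 1.12 for *Hsd3b1* and 1.20 for *Star*. When Leydig cells of both suffixes were split at 580 and 1240 CPM of *Insl3*, the high tercile held 86 of 177 cells (48.6%) in suffix 3 and 21 of 143 (14.7%) in suffix 4. Within terciles the ratio of *Ren1* between suffixes was not the same throughout. *Ren1* was at 260 and 254 CPM in the low tercile, a ratio of 0.977 (0.820 to 1.17). It was at 667 and 839 CPM in the middle tercile, a ratio of 1.26 (1.13 to 1.40), and at 3202 and 3152 CPM in the high tercile, a ratio of 0.984 (0.920 to 1.05). The high tercile of suffix 4 depended on 1 cell with 46.5% of its *Ren1* UMIs: without the highest cell of each suffix the levels were 2764 and 1794 CPM, a ratio of 0.649, and the ratio was 1.32 in the middle and 1.04 in the low tercile. The median cell of that tercile was at 811 and 902 CPM. Across single cells, the rank correlation of *Ren1* and *Insl3* was 0.48 in suffix 3 (177 cells) and 0.47 in suffix 4 (143 cells), and that of *Ren1* was 0.23 and 0.27 with *Cyp17a1*, 0.09 and 0.17 with *Cyp11a1* and -0.23 and -0.07 with *Hsd3b1*. These cells share a library and the correlations carry no p-value.

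**Figure D2:**
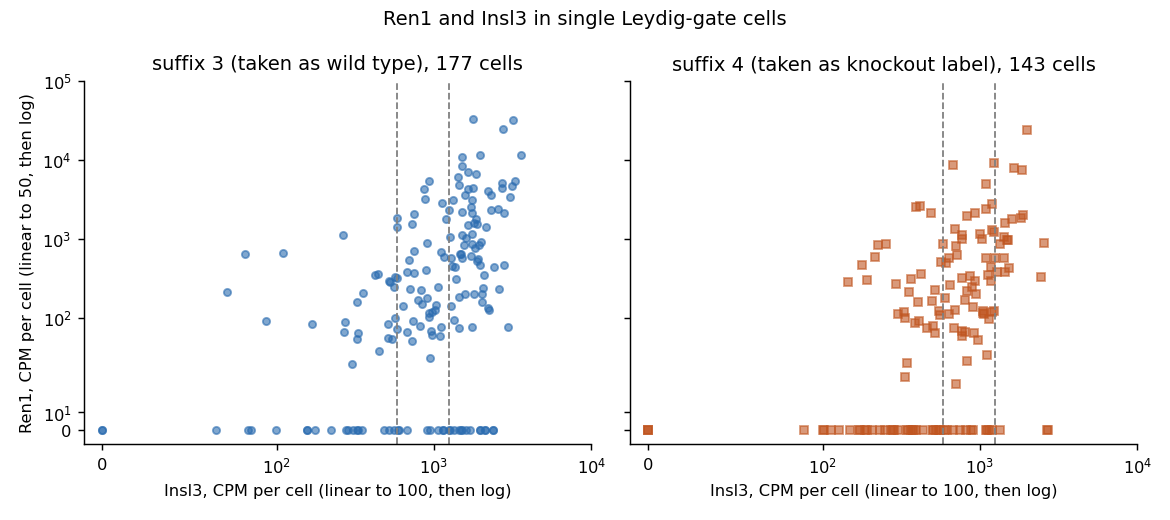
*Ren1* against *Insl3* in each Leydig-gate cell (CPM per cell, axes linear near 0 and log above), suffix 3 on the left and suffix 4 on the right, with dashed lines at the tercile limits of 580 and 1240 CPM of *Insl3*. Past the right line lie 86 cells of suffix 3 but 21 of suffix 4. Of the cells with 10 or more *Ren1* UMIs, 47 of 62 lie there in suffix 3 and 12 of 42 in suffix 4.

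Leydig cells that also passed the stroma gate had more *Ren1* than the others, at 3009 against 1263 CPM in suffix 3 and 1506 against 618 CPM in suffix 4. These sums rest on few cells. Without the 2 highest cells of each set the levels were 1645 and 1042 CPM in suffix 3 and 592 and 467 CPM in suffix 4, and without the 5 highest they were 959 and 858 CPM and 341 and 332 CPM. The median cell was at 586 against 187 CPM in suffix 3 and 304 against 114 CPM in suffix 4. The few cycling Leydig cells (at least 3 UMIs of *Mki67* and *Top2a*, 5 and 10 cells) were at 82.0 and 287 CPM. Cells with no such UMI were at 1892 and 985 CPM. The cycling cells were deeper, at a median of 34036 and 28394.5 UMIs against 14577 and 16906. The part of doublets in this was not tested.

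The substrate of renin, *Agt*, was also highest in Leydig cells, but at a low level and with a broad base. It was at 28.6 CPM (22.8 to 35.3) in suffix 3 and 29.2 CPM (23.3 to 36.2) in suffix 4, from 86 and 84 UMIs. Myoid cells followed at 10.7 and 9.83 CPM and stroma at 9.67 and 9.32 CPM, with overlapping intervals, and Sertoli cells were at 2.38 and 3.25 CPM. Macrophages had 3 UMIs in suffix 3 and 0 in suffix 4, which allows up to 5.71 CPM. Leydig cells stood 2.68-fold (1.99 to 3.59) above myoid cells in suffix 3 and 2.97-fold (2.14 to 4.14) in suffix 4. In suffix 4, 37 of the 84 UMIs came from 1 cell, and without the 5 highest Leydig cells of each suffix the fold was 1.49 over both suffixes. An *Agt* UMI was found in 23.2% and 21.7% of Leydig cells (11.3% and 10.6% thinned) against 3.50% and 5.32% of Sertoli cells (1.25% and 1.53% thinned). Stroma, the most numerous gate, held 66.8% of all 1027 *Agt* UMIs, and 47.8% with cells of other gates taken out, at 8.65 and 8.97 CPM. The suffixes did not differ beyond counting error in Leydig cells, with a ratio of 1.02 (0.748 to 1.40), but this value rests on few cells: it was 2.24 with a stricter cell filter (3000 genes or more, mitochondrial share up to 5%) and 0.574 without the 5 highest cells of each suffix.

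Within the Leydig gate, *Agt* was lowest where *Insl3* was low, at 6.25 and 9.59 CPM, against 33.3 and 52.4 CPM in the middle and 38.5 and 26.8 CPM in the high tercile. The middle value of suffix 4 includes the cell with 37 UMIs and was 21.4 CPM without it. *Ren1* and *Agt* were found in the same cell in 32 Leydig cells of suffix 3 and 24 of suffix 4. *Agt* was found in 23.5% of cells with and 22.0% of cells without *Ren1* in suffix 3, and in 24.7% and 15.2% in suffix 4.

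*Ace* was highest in peritubular myoid cells, the contractile layer around the tubules, but was not confined to them. The myoid gate held 52.5% of the 1468 *Ace* UMIs, and the stroma gate, which includes most myoid cells, held 87.1%. With cells of other gates taken out, stroma had 361 and 217 UMIs. The *Ace* level in myoid cells was 48.8 CPM (44.6 to 53.4) in suffix 3 and 39.5 CPM (35 to 44.4) in suffix 4. The stroma gate was next at 20.6 and 14.3 CPM, and at 12.2 and 8.32 CPM with cells of other gates taken out. Myoid cells were then 4.34-fold (3.78 to 5.0) above stroma in suffix 3 and 5.0-fold (4.17 to 6.01) in suffix 4. Sertoli cells were at 1.16 and 0.760 CPM, and Leydig cells at 0.664 and 0.696 CPM from 2 UMIs each, so the gate richest in renin was nearly empty of *Ace*. Macrophages had 2 UMIs in suffix 3 and 0 in suffix 4. An *Ace* UMI was found in 43.2% and 38.0% of myoid cells (21.9% and 17.8% thinned), with no more than 5 UMIs in a cell. The ratio of suffix 4 to suffix 3 was 0.808 (0.695 to 0.938) in myoid cells and 0.694 (0.619 to 0.779) in stroma, neither past 2-fold.

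Germ cells, gated on *Ddx4*, *Dazl* and *Mael* (122 in suffix 3, 12 in suffix 4), had 58 *Ace* UMIs in suffix 3 and 3 in suffix 4, at 13.7 CPM (10.4 to 17.7) and 6.48 CPM (1.34 to 18.9). These cells were the deepest, at a median of 35095.5 and 34528 UMIs. *Ace* was found in 37.7% of germ cells of suffix 3, and in 5.88% after thinning to 5000 UMIs, against 0.313% of Sertoli cells thinned in the same way. The 3′ counts do not tell whether these UMIs come from the somatic or the internal promoter of *Ace* shown above.

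The receptors differed in level and place. *Agtr1a* had 77 UMIs in all kept cells. Of these, 18 and 7 lay in Leydig cells, at 5.98 CPM (3.54 to 9.45) in suffix 3 and 2.44 CPM (0.979 to 5.02) in suffix 4, and 20 and 23 lay in stroma, at 0.513 and 0.694 CPM. The Leydig level was 11.6-fold (5.81 to 23.2) that of stroma in suffix 3 and 3.51-fold (1.27 to 8.45) in suffix 4. Over both suffixes the fold was 6.39, and 1.88 without the 5 highest Leydig cells of each suffix. No cell had more than 2 UMIs. The ratio between suffixes in Leydig cells, 0.407 (0.144 to 1.02), was not separable from 1 by counting error. It was 0.104 without those 5 cells, but only 15 and 6 Leydig cells had a UMI, so very few UMIs were left in suffix 4. An *Agtr1a* UMI was in 8.47% and 4.2% of Leydig cells (1.13% and 0.704% thinned), against 0.310% and 0.183% of Sertoli cells. In macrophages 2 UMIs came from 1 cell of suffix 3 and none from suffix 4, which allows up to 5.71 CPM and does not separate them from Leydig cells. The paralog *Agtr1b* had 30 UMIs in all kept cells.

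*Agtr2* was highest in the stroma. Its level there was 116 CPM (113 to 120) in suffix 3 and 136 CPM (132 to 141) in suffix 4, and 148 and 169 CPM with cells of other gates taken out. Leydig cells were at 19.3 and 14.3 CPM, myoid cells at 12.9 and 13.6 CPM, Sertoli cells at 10.6 and 16.9 CPM and macrophages at 8.79 and 11.4 CPM. Stroma was 6.04-fold (4.67 to 7.97) above Leydig cells in suffix 3 and 9.57-fold (7.04 to 13.4) in suffix 4, and 7.06-fold and 10.1-fold with other gates cleared. The intervals of the lower gates overlapped, apart from those of Leydig and Sertoli cells in suffix 3. Unlike *Ren1*, *Agtr2* was spread over many cells: 45.7% and 50.7% of the stroma gate had a UMI (34% and 37.5% thinned), against 7.0% and 11.2% of Sertoli cells (2.73% and 4.11% thinned), at a median of 9838.5 and 9933 UMIs in stroma and 13711 and 15847 in Sertoli cells. In stroma no cell had more than 21, and the 5 highest cells held 1.94% and 1.77% of the UMIs.

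Within the stroma (cells of other gates taken out), *Agtr2* and *Ace* were highest in different cells. Stromal cells were split by at least 3 UMIs of the interstitial matrix genes *Lum*, *Dpt* and *Aspn*, and of *Tbata*, *Cyp26b1* and *Smoc2*. *Agtr2* was at 194 and 220 CPM in cells with the first set only (134 and 131 cells), and at 223 and 244 CPM in cells with both sets (1143 and 1146 cells). It was at 93.1 CPM in both suffixes in cells with the second set only (1382 and 1058 cells), and at 50.5 and 57.3 CPM in cells with neither (214 and 160 cells). *Ace* ran the other way. It was at 3.72 CPM in suffix 3 and 0 UMIs in suffix 4 with the first set (up to 2.63 CPM allowed). It was at 4.49 and 3.27 CPM with both, 15.7 and 12.9 CPM with the second set and 38.3 and 24.0 CPM with neither. Cells with neither set were shallow, at a median of 8144.5 and 8331.5 UMIs. The myoid gate depends on depth: it held 764 and 524 cells, but 389 and 250 when gated on cells thinned to 5000 UMIs. Myoid cells that it missed could remain in the cleared stroma, and their part in the *Ace* values was not tested. *Ace* was found in 4.85% and 3.52% of these stromal cells with an *Agtr2* UMI and in 16.1% and 12.3% of those without one. In the whole stroma gate, which includes most myoid cells, the shares were 5.73% and 4.53% against 24.7% and 19.8%. Across the cleared stromal cells the rank correlation of *Agtr2* and *Ace* was weak, at -0.18 (2873 cells) and -0.16 (2495 cells). Cycling stromal cells had less *Agtr2*, at 113 and 125 CPM, than cells without *Mki67* or *Top2a* UMIs, at 163 and 187 CPM.

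**Figure D3:**
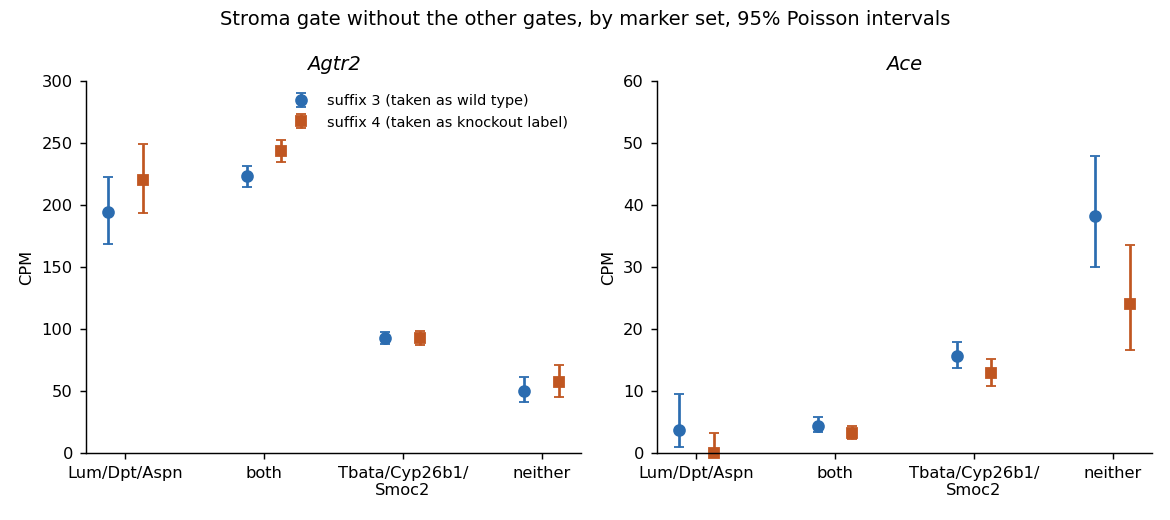
*Agtr2* (left) and *Ace* (right) in stroma-gate cells that passed no other gate, split by marker sets (CPM, 95% Poisson intervals, circles for suffix 3, squares for suffix 4). *Agtr2* is near 200 CPM or above where *Lum*, *Dpt* and *Aspn* are present, and *Ace* is highest, at 38.3 and 24.0 CPM, where neither set is.

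*Agtr2* was 1.17-fold (1.13 to 1.22) as high in suffix 4 as in suffix 3 in stroma, and 1.15-fold (1.10 to 1.19) with cells of other gates taken out. Within the marker sets of the cleared stroma the ratio was 1.0 (0.921 to 1.09) for the second set only, 1.09 (1.04 to 1.15) for both sets, 1.13 (0.940 to 1.37) for the first set only and 1.13 (0.835 to 1.54) for neither, which was 1.35 (1.01 to 1.81) in the whole stroma gate. The ratio in Sertoli cells was larger, at 1.59 (1.39 to 1.82). Sertoli cells with no *Pdgfra* UMI had little *Agtr2*, at 1.82 and 2.32 CPM, and those with at least 1 had 49.8 and 63.1 CPM. There were 277 such cells of 2256 in suffix 3 and 278 of 1635 in suffix 4. Per 100 UMIs of the stromal gene *Dcn*, *Agtr2* was found at 5.71 and 5.18 UMIs in Sertoli cells outside other gates and at 5.06 and 5.36 UMIs in stroma. The part of stromal RNA or of doublets in this value was not tested. In Leydig cells *Agtr2* stood higher against *Dcn*, at 12.5 and 12.9 UMIs per 100, and in myoid cells lower, at 2.13 and 2.04.

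*Atp6ap2* was found everywhere. Macrophages were highest, at 188 CPM (154 to 227) in suffix 3 and 156 CPM (124 to 194) in suffix 4, from 31 and 23 cells. Leydig cells were at 80.0 and 68.9 CPM, stroma at 74.7 and 70.4 CPM and myoid cells at 73.4 and 66.6 CPM, with overlapping intervals. Sertoli cells were lower, at 58.6 CPM (56.2 to 61.2) and 53.5 CPM (50.8 to 56.2). Macrophages stood 2.35-fold (1.85 to 2.96) and 2.27-fold (1.73 to 2.95) above Leydig cells. *Atp6ap2* was found in 83.9% and 78.3% of macrophages and in 51.5% to 72.9% of cells of the other gates. These shares are not set to 1 depth: macrophages had a median of 17546 and 22889 UMIs, and stroma 9838.5 and 9933. Thinned to 5000 UMIs, the macrophage shares were 53.3% and 56.5%, which cannot be set against the raw shares of the other gates. The ratio of *Atp6ap2* between suffixes lay between 0.830 and 0.943 in the 5 gates. In germ cells the level was 53.5 CPM in suffix 3 and 136 CPM in suffix 4, a ratio of 2.54 (1.89 to 3.37) from 227 and 63 UMIs, where the median ratio of 12347 genes was 0.602. In suffix 4, 4 of the 12 cells held 50% of the 63 UMIs. The part of this, and of the different make-up of the germ gates, in the ratio was not tested.

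The 15 other V-ATPase genes, which encode subunits of the pump that acidifies lysosomes, were all past the UMI minimum. Macrophages led 14 of them in both suffixes, where they led 11.7% of all 17135 genes, and led 8 by at least 2-fold, against 5.18% of all genes. The highest levels were those of *Atp6v0c* (1216 and 1398 CPM in macrophages), *Atp6v1g1* (615 and 686) and *Atp6v0b* (568 and 653). The exception was *Atp6v0a2*, which was highest in macrophages in suffix 3 and in myoid cells in suffix 4. None of the 15 was 2-fold apart between suffixes in any gate.

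**Figure D4:**
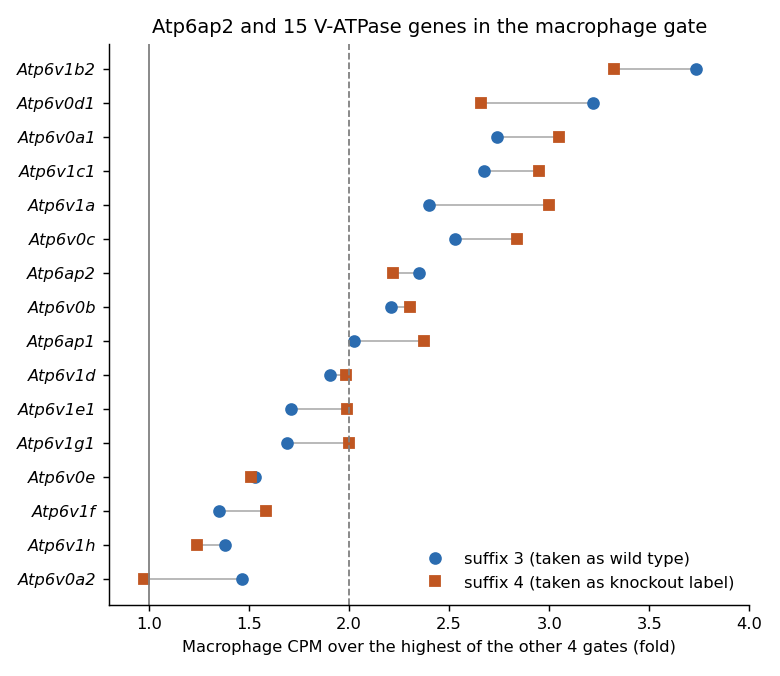
Level in macrophages over the highest of the other 4 gates (fold), for *Atp6ap2* and 15 V-ATPase genes, circles for suffix 3 and squares for suffix 4; the dashed line marks 2-fold. *Atp6ap2* lies at 2.35 in suffix 3, within the range of the pump genes.

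Of 24 further genes of the system (peptidases, other receptors and modifiers), 21 were looked at and 15 had at least 20 UMIs over the gates in each suffix, the minimum for naming a leading gate. Macrophages led *Ctsd* (4539 and 5659 CPM), *Ctsa* (620 and 697) and *Prcp* (82.6 and 78.1) by at least 2-fold in both suffixes, against 5.18% of all genes. These are a lysosomal aspartic protease, a carboxypeptidase and the prolylcarboxypeptidase that cuts angiotensin II. *Enpep*, the aminopeptidase that turns angiotensin II to angiotensin III, was led by myoid cells like *Ace*, at 113 and 136 CPM against 47.3 and 56.2 CPM in stroma (0.905% of all genes were led 2-fold by myoid cells). *Mme* (neprilysin), which cuts angiotensin I, was highest in myoid cells too, at 404 and 403 CPM, but close to stroma at 332 and 309 CPM. Ratios between suffixes were taken for genes with at least 20 UMIs in a gate over both suffixes, which were 15 genes in Sertoli cells and 17 in stroma. By that minimum *Klk1* was at least 2-fold higher in suffix 4 in Sertoli cells (1.28% of all genes were), *Cma1* and *Cpa3* were at least 2-fold lower in stroma (2.11% of all genes were), and none was 2-fold apart in the Leydig, myoid and macrophage gates. These 3 did not reach the minimum for a leading gate and are named after their values were seen. The median ratio in each gate was between 0.926 and 1.03.

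Over all 5 gates, 4 of the 23 values that compare members with at least 20 UMIs between suffixes are past 2-fold, all lower in suffix 4: *Ren1* in Leydig cells, stroma and macrophages, and *Agtr1a* in Leydig cells. The share of all genes at least 2-fold higher in suffix 4 was 1.28% in Sertoli cells, 1.46% in Leydig cells, 0.869% in myoid cells, 1.41% in stroma and 3.88% in macrophages, and no member was among them. The share at least 2-fold lower in suffix 4 was 4.5% in Sertoli cells, 1.69% in myoid cells, 2.11% in stroma and 3.49% in macrophages. The *Ren1* ratio in Leydig cells was no longer past 2-fold with the stricter cell filter (0.593), in cells of 1 gate (0.557), with other gates cleared (0.511) or as a mean over cells (0.508). In stroma it was 1.0 with cells of other gates taken out, and no *Ren1* UMI was left in macrophages cleared in this way.

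**Figure D5:**
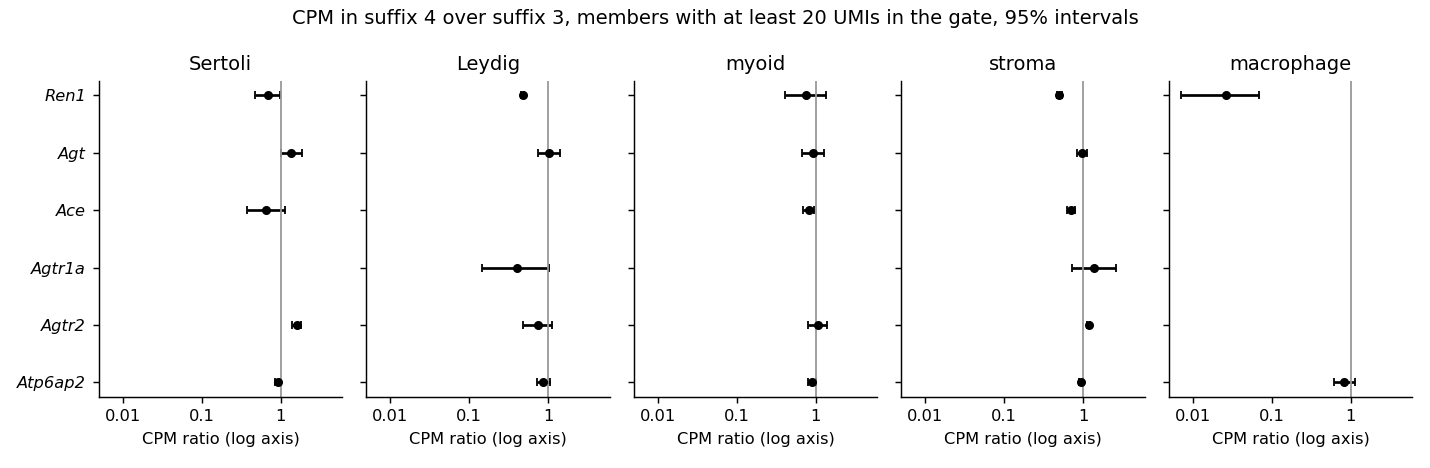
Ratio of CPM in suffix 4 to suffix 3 (log axis) for each member with at least 20 UMIs in a gate, with exact 95% intervals for counting error. *Ren1* lies at 0.473 in Leydig cells, 0.495 in stroma and 0.0264 in macrophages and *Agtr1a* at 0.407 in Leydig cells, and the other values lie between 0.653 (*Ace*) and 1.59 (*Agtr2*), both in Sertoli cells.

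Genes were ranked by how like their profile was to that of each member, by the Pearson correlation of log2(CPM + 10) over 10 profiles (5 gates in 2 suffixes) among 15596 genes with at least 100 UMIs. The profiles share libraries and overlapping cells, and the values are a description. Nearest to *Ren1* were *Acadvl* (0.98), *Bcl11a* (0.98), *Itga2b* (0.97), *Bmp2* (0.97) and *Mfn2* (0.97), none of which passed 110 CPM in Leydig cells. Nearest to *Agt* were *L3hypdh*, *Rftn2*, *Htra2*, *Galk1* and *Dnm3* (0.97 to 0.99), and to *Ace* *Colec11*, *Tmeff2*, *Hlf*, *Col4a3* and *Tmem204* (all above 0.99). Nearest to *Agtr1a* were *Adgrv1*, *Gdf9*, *Ttc33*, *Iqcc* and *Nsun3* (0.94 to 0.97). *Agtr2* was nearest to *Gm37479*, *Gm29214*, *Vit*, *Tppp3* and *Gm36952*, and *Atp6ap2* to *Prcp*, *Slc46a3*, *Gdpd5*, *E230029C05Rik* and *Mfsd12*. By the same measure *Ren1* was nearer to *Agtr1a* (0.93) and *Agt* (0.76) than to *Ace* (-0.39), *Agtr2* (0.04) or *Atp6ap2* (0.24). With 77 UMIs, *Agtr1a* lies below the minimum of 100 and was kept as a member, and its levels lie below the 10 CPM added before the log. So does *Bcl11a* in Leydig cells, at 6.64 and 6.26 CPM. By the cosine of CPM, none of the 5 genes named for *Ren1* was among its 5 nearest, and *Insl3* was first (0.99). The *Ren1* profile used the overlapping gates, so it includes the stroma and macrophage values that rest mostly on cells of other gates.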

How the data were processed

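At postnatal day 2, cells of whole testes of wild-type mice and *Ddx5* conditional knockouts were captured with the Chromium 3′ v3 kit. The deposited table holds the UMI counts that the authors obtained without normalization, for 30451 genes and 12186 barcodes. The submitters' processing notes name Cell Ranger 3.1.0, Seurat 3.1.5 and GRCm38. There are 16 labelled samples, 8 per genotype, which the barcodes do not tell apart, so each suffix is 1 library.

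Barcodes with 2000 genes or more and a mitochondrial share of no more than 10% were kept (11279 cells). Gates were *Amh* of at least 3 UMIs (Sertoli), the sum of *Cyp11a1*, *Cyp17a1* and *Hsd3b1* of at least 20 (Leydig), *Acta2* of at least 5 with *Myh11* of at least 2 (myoid), *Pdgfra* of at least 1 with *Amh* of at most 2 (stroma), the sum of *C1qa*, *C1qb* and *C1qc* of at least 5 (macrophage), and the sum of *Ddx4*, *Dazl* and *Mael* of at least 5 (germ). UMIs were summed per gate and suffix and scaled to CPM. Sums have exact Poisson intervals, ratios exact conditional binomial intervals and shares exact Clopper-Pearson intervals, at 95%. A count of 0 is set against 3 UMIs over the group. No test was run, since cells are not replicates. For shares, cells were also thinned to 5000 UMIs. Doublets were called per suffix with Scrublet in scanpy 1.11.5 (4.96% and 6.44% of cells, of which 14 and 22 in the Leydig gate) and kept. Python 3.11.15, numpy 2.4.6, scipy 1.17.1 and matplotlib 3.10.9 were used.

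The members, the lists and the gates were chosen with earlier results of these data known. Beside the 6 members, the text names the 3 genes with the highest level in each of the 2 further lists, the genes of the wider list whose leading gate was at least 2-fold over the next in both suffixes, and the 5 genes most like each member. Of 907 barcodes taken out by the filter, the UMIs of the members are given at the end. The rule for ratios was run on simulated sums of a Leydig gate (11251 genes), drawn with Poisson counting error. Of 192 genes changed 4-fold, 99.0% were called 2-fold the right way. Of unchanged genes 1.16% passed 2-fold, and 96.3% of intervals held the true ratio. The intervals assume this same error. The run therefore cannot show how they hold where few cells carry most of the UMIs, as for *Ren1*. Gene positions and upstream sequences are from RefSeq (GRCm38.p6): all 6 members matched for position and 5 for sequence, with 2 starts for *Ace*.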

Additional observations from a re-analysis of the deposited data

Results flagged for a closer look

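Barcodes taken out by the cell filter held UMIs of all 6 members, which are signals in data outside the comparisons above. *Ren1* had 666 UMIs there, of which 655 were in the 88 of these 907 barcodes that passed the Leydig gate and 227 in 1 barcode. *Agt* had 21 UMIs, *Ace* 24, *Agtr1a* 5, *Agtr2* 137 and *Atp6ap2* 200. With the looser filter (1000 genes or more, mitochondrial share up to 20%), the ratio of *Ren1* between suffixes in Leydig cells was 0.445. No replicates allowed a check of single samples against their group.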

How the results depend on the processing

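The leading gate of each member stayed above the gate next to it in all 59 alternatives that gave a fold, and 40 of them moved the fold by less than its counting interval. Of 65 alternatives for the ratio between suffixes, 55 moved it by less than that. The other values follow, and the cause was not tested unless named. The fold of *Ren1* in Leydig cells over stroma (24.8) was 55.0 with the stricter cell filter (at least 3000 genes, at most 5% mitochondrial UMIs), 318 in cells that passed exactly 1 gate, 34.6 without called doublets, 45 with gates at higher limits, 55.2 with gates on thinned cells, 40.9 as the mean of CPM over cells, 432 with cells of other gates taken out of stroma and 14.4 without the 5 highest cells. Its ratio between suffixes (0.473) was 0.445 with the looser filter, 0.593 with the stricter one, 0.557 in cells of 1 gate, 0.364 without doublets, 0.508 as a mean over cells, 0.511 with stroma cleared and 0.415 without the 5 highest cells. For *Agt* the fold (2.82) was 4.2 with the stricter filter and 1.49 without the 5 highest cells, and the ratio (1.02) was 2.24 and 0.574 in the same settings, so that its direction rests on few cells. The fold of *Ace* in myoid cells over stroma (2.55) was 4.94 in cells of 1 gate, 2.82 without doublets, 2.95 with higher gates, 3.40 with gates on thinned cells, 2.88 as a mean over cells and 4.66 with stroma cleared. Without the 5 highest cells, the fold of *Agtr1a* (6.39) was 1.88, its ratio (0.407) was 0.104 from very few UMIs, and the fold of *Atp6ap2* (2.31) was 1.85. The fold of *Agtr2* in stroma over Leydig cells (7.60) was 12.6 in cells of 1 gate. The stricter filter left 40 and 28 Leydig cells with 4 and 0 *Agtr1a* UMIs, so no fold or ratio could be given there. By the cosine of CPM in place of the correlation, 0 to 2 of the 5 nearest genes of a member were shared. Clearing stroma and leaving out the highest cells, here and above, were chosen after seeing the data. For a fold, the highest cells were left out of the leading gate only and not of the gate it was set against.

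No paired analysis was possible because the barcodes do not tell the labelled libraries apart, and no replicate was left out, as each suffix counts as 1 library. *Agtr1a* is limited by its 77 UMIs, and macrophages by their number of cells (54). The counting intervals leave out the spread between animals, which was not measured.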

Other observations

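Chymase (*Cma1*), a mast cell protease that can also turn angiotensin I to angiotensin II, was held by very few cells. Of its UMIs in kept cells, 235 were in suffix 3 and 10 in suffix 4, and 233 of those in suffix 3 lay in 6 cells that together also had 105 UMIs of *Cpa3*, another mast cell protease. Of these 6 cells 4 passed the stroma gate. They held 5 *Agtr2* UMIs and none of the other members. No cell of suffix 4 had 10 UMIs of *Cma1* and *Cpa3* together. Both genes were looked at after their values were seen, and no test was run.

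Around the gates, the 25 cells of suffix 3 with at least 2 *Pax8* UMIs had *Atp6ap2* at 85.1 CPM (61.8 to 114) and 0 UMIs of *Agt* and *Agtr2*, and suffix 4 had no such cell. The 450 cells that passed no gate held 3.32% of the *Agtr2* UMIs, at 51.4 CPM in suffix 3 and 72.0 CPM in suffix 4, and 0.125% of the *Ren1* UMIs.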
